A study of Rattus norvegicus with 20 samples.

Results

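RNA of primary rat heart cell cultures exposed to celecoxib for 24 h was compared with RNA of cultures exposed for 6 h, both at the lowest reference concentration of the series, 1/25. The comparison rests on 6 single-colour Agilent arrays, 3 per time, chosen by the concentration and time in the sample titles, out of 20 arrays in all. The cultures came from neonatal hearts and grew for 1 day before the drug was added. The labels give neither the absolute dose, the strain nor the vehicle. They do not state whether the replicates of a group came from different cultures. The p-values thus reflect only the spread between arrays, pooled over all 20, which may be technical. Further reference came from 2 untreated arrays, to which no time is attached, and from the 24 h and 6 h arrays at reference concentration 1, with 3 arrays each. No untreated array is labelled 6 h or 24 h, so time in culture and time on the drug cannot be told apart in any value below.

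Celecoxib blocks cyclo-oxygenase 2, the inducible enzyme encoded by Ptgs2, which turns arachidonic acid into the precursor of prostaglandins and thromboxane. Ptgs1 encodes the related enzyme that most cells make at a steady level. Ptgs2 RNA is short-lived and is known to rise for some hours after serum, stretch or cytokines, and the drug acts on the enzyme rather than on its RNA. Neonatal heart cultures hold beating cardiomyocytes together with fibroblasts, smooth muscle, endothelial cells and macrophages.

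Levels are given as log2 of the processed signal minus the log2 of that array's 75th percentile, so 0 marks a probe as bright as the 75th percentile, and differences are 24 h minus 6 h on that scale. All 3 arrays of 24 h and replicate 1 of 6 h were scanned on one day, and replicates 2 and 3 of 6 h on another. Scan day therefore stood as a term in the fit of all 20 arrays, and a gene was called at a Benjamini-Hochberg adjusted p (limma) below 0.05. With that term a difference at 1/25 is not the plain difference of the group means. It leans most on 6 h replicate 1, scanned with the 24 h arrays. The 6 h arrays at concentration 1 help set the term, and each SE uses the spread over all 20 arrays. Across 27122 genes, 6 h replicate 1 correlated with the 24 h arrays at 0.933 to 0.952, and with replicates 2 and 3 of its own group at 0.907 and 0.888. The 24 h arrays correlated with each other at 0.964 to 0.971. No slide held arrays of both times at 1/25. Treating slides as random blocks gave 1043 called genes beside scan day and 13 in its place. From 64.2% to 83.1% of probes read well above background on these 6 arrays and 5.75% to 9.21% were saturated, and the number of arrays limits the precision. Both lowest shares were those of 6 h replicate 1, whose 75th percentile of signal (7708) was the lowest of all 20 arrays.

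The cell type was checked against marker lists. Of 14 cardiomyocyte markers measured, 13 were above background on all 6 arrays, the exception being Nkx2-5. Their mean log2 level was 1.27, 0.33 and 1.00 on the 6 h arrays and 1.04, 0.95 and 0.77 on the 24 h arrays, with 6 h replicate 2 lowest. Markers of other cells were also above background on all 6 arrays, namely 11 of 13 for fibroblasts, 10 of 11 for smooth muscle and pericytes, 6 of 10 for endothelium, 12 of 17 for macrophages and leukocytes, 6 of 7 erythroid and 7 of 11 epicardial or neural crest markers.

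The promoters of 3 of the leading genes that fell are shown first, because Ptgs2 and Tfpi2 gave the largest falls described here among list members and Slc7a5 shares a motif with Ptgs2. Each run is the 250 bases before the annotated start, from RefSeq on build GRCr8, 5′ to 3′ on the strand of the gene, and capitals mark matches to CACGTG (E-box) or to an NF-kappa-B type motif (GGGA and CC with any 4 bases between) on either strand.
Ptgs2, chr13:64713813-64714062, plus strand: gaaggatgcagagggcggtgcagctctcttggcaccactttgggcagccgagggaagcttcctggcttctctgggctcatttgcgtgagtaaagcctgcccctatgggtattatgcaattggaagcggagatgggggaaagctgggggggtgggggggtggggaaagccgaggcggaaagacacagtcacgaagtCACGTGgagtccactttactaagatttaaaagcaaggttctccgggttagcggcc
Tfpi2, chr4:32941277-32941526, minus strand: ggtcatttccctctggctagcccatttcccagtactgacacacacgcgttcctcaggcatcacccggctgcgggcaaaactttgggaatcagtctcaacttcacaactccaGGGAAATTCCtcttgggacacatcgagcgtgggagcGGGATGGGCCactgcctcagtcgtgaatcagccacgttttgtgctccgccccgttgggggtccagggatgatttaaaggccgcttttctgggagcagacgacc
Slc7a5, chr19:66872413-66872662, minus strand: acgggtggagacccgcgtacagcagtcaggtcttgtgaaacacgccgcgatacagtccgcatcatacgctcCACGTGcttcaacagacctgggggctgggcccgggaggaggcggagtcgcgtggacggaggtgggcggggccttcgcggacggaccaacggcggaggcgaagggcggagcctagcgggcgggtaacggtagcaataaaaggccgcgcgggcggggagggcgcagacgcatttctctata
The E-box of Ptgs2 begins 55 bases before the start and that of Slc7a5 begins 179 bases before it, and CACGTG occurs in 5.59% of 33469 such windows. The Tfpi2 window holds 2 matches to the NF-kappa-B type motif, beginning 139 and 103 bases before the start, a motif in 16.4% of windows. The other motifs searched were TTTGGCGC or TTTCCCGC (1.21% of windows), TGACGTCA or TGACGTAA (2.32%), TGATGNAAT (0.944%), CCAAT (34.0%) and a loose CArG pattern, CC and GG with any 6 bases between (65.1%). Of 13 falls, the 12 leading ones and Ptgs2, 8 had a RefSeq promoter, and 2 of those held CACGTG, 1 held the NF-kappa-B type motif, 2 held CCAAT and 8 held the CArG pattern. None held TTTGGCGC, TTTCCCGC, TGACGTCA, TGACGTAA or TGATGNAAT. Of the 12 leading rises, 9 had a promoter, with CACGTG in 0, the NF-kappa-B type motif in 2, CCAAT in 3 and the CArG pattern in 8.

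Ptgs2 was among the largest falls. Its level was -0.74, -0.39 and 0.23 on the 6 h arrays and -4.24, -4.23 and -3.90 on the 24 h arrays, and it was above background on all 6 h arrays and 2 of the 3 24 h arrays. Every 24 h array lay far below every 6 h array, and the difference was -3.24 ± 0.43 (SE, n = 3 per group, adjusted p = 0.00247). The untreated arrays read -3.87 and -2.39, so the 24 h arrays lay at or below them and the 6 h arrays above. Ptgs2 was also lower at 24 h at concentration 1, by -2.01 (adjusted p = 0.0153), where the levels were -1.38, -2.16 and -0.68 at 6 h and -3.72, -4.17 and -3.23 at 24 h. At 1/5 they were -1.40, -0.96 and -1.19 at 6 h and -3.77, -4.14 and -4.20 at 24 h. The fall at 1/25 exceeded that at concentration 1 by -1.23 ± 0.51, which did not pass the adjusted test (adjusted p = 0.995). Without 6 h replicate 1 the fall was -2.95 and no longer called. The probe lies at chr13:64448537-64448596 in the rn3 coordinates of the scanner files.

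No other member of the prostanoid list was called. Of 12 members measured, 1 was called, beside 2.3% of the 27741 genes tested (637 genes, 482 or 1.74% higher at 24 h and 155 or 0.559% lower), and the median difference was 0.03 against 0.02 over all genes. Ptgs1 read 1.81, 1.59 and 2.06 at 6 h and 1.48, 1.39 and 1.47 at 24 h, a difference of -0.46 ± 0.24 (adjusted p = 0.307). All 24 h arrays lay below all 6 h arrays for Ptgs1, without passing the test. Ptges, a prostaglandin E synthase, differed by 0.79 (adjusted p = 0.23) and the prostacyclin receptor Ptgir by 1.92 (adjusted p = 0.26).

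Tfpi2, a secreted inhibitor of serine proteases such as plasmin, fell likewise. It read -0.10, -1.07 and -0.03 at 6 h against -4.55, -3.50 and -3.38 at 24 h, and -4.44 and -3.72 on the untreated arrays. The difference was -3.52 ± 0.49 (adjusted p = 0.00336), an 11.5-fold fall, and 2 of the 3 24 h arrays lay above both untreated arrays. At concentration 1 the levels were -0.85, -1.28 and -0.94 at 6 h and -3.99, -4.34 and -3.31 at 24 h, and the fall was -2.91 (adjusted p = 0.00395). At 1/5 they were -1.04, -1.12 and -1.08 at 6 h and -2.72, -3.89 and -2.85 at 24 h. Without 6 h replicate 1 the fall at 1/25 was -3.13 and no longer called. The probe lies at chr4:28825607-28825666 in rn3.

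Of the 24 measured metalloproteases, plasminogen activators and inhibitors, Plaur was the other one called, beside 0.559% of all genes tested that were called lower. Plaur encodes the urokinase receptor, and its difference was -2.04 ± 0.42 (adjusted p = 0.0217). It read -1.79, -2.69 and -3.30 at 6 h and -3.73, -3.51 and -3.11 at 24 h, so the times overlapped and the call came only with the scan day term (-0.86 without it, adjusted p = 0.366; -2.80 without 6 h replicate 1, not called). The list's median was -0.06.

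Gldn encodes gliomedin, a protein of the node of Ranvier, and it stayed far above the untreated arrays at both times. Its level was 0.63, 0.36 and 0.05 at 6 h, -0.44, -0.95 and -0.79 at 24 h, and -4.01 and -3.77 on the untreated arrays. The times did not overlap, with a difference of -1.19 ± 0.31 that just missed the threshold (adjusted p = 0.0585; 0.0457 without the scan day term). All 24 h arrays lay above both untreated arrays.

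**Figure D1:**
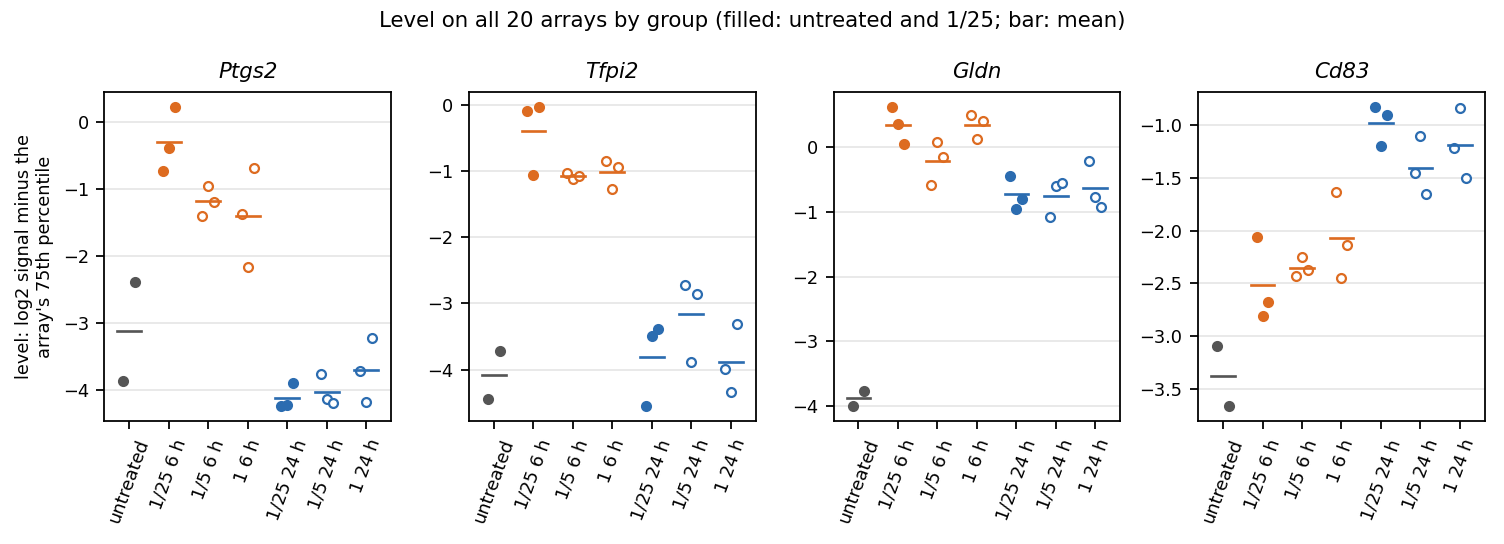
Level (log2 signal minus the array's 75th percentile, y axis) of Ptgs2, Tfpi2, Gldn and Cd83 on all 20 arrays by group (x axis: reference concentration and time); each point is an array and each bar a group mean, with filled points for untreated and 1/25. Ptgs2 and Tfpi2 are higher at 6 h than at 24 h at each concentration, at 1/25 from -0.74 to 0.23 at 6 h and from -4.24 to -3.90 at 24 h for Ptgs2, whereas Gldn stays above the untreated arrays at both times and Cd83 is higher at 24 h than at 6 h.

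Among genes that met every naming criterion (called with and without the scan day term, above background and unsaturated on all 6 arrays, times not overlapping), 21 rose and 15 fell. Over all genes tested, 171 or 0.616% were called in both fits in the same direction, 71 higher and 100 lower. The fit without the scan day term called 681 genes or 2.45%, of which 43.9% were higher, against 75.7% with it. The share higher was 58.5% with median scaling, 60.9% with normexp background correction and 60.4% in a fit of the authors' deposited table, so the split changed with the scaling. The median difference over all genes was 0.02 with the scan day term, 0.10 without it and -0.23 with median scaling. In the plot of both fits, 411 of the 466 genes called only with the term lie above the line of equal values.

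**Figure D2:**
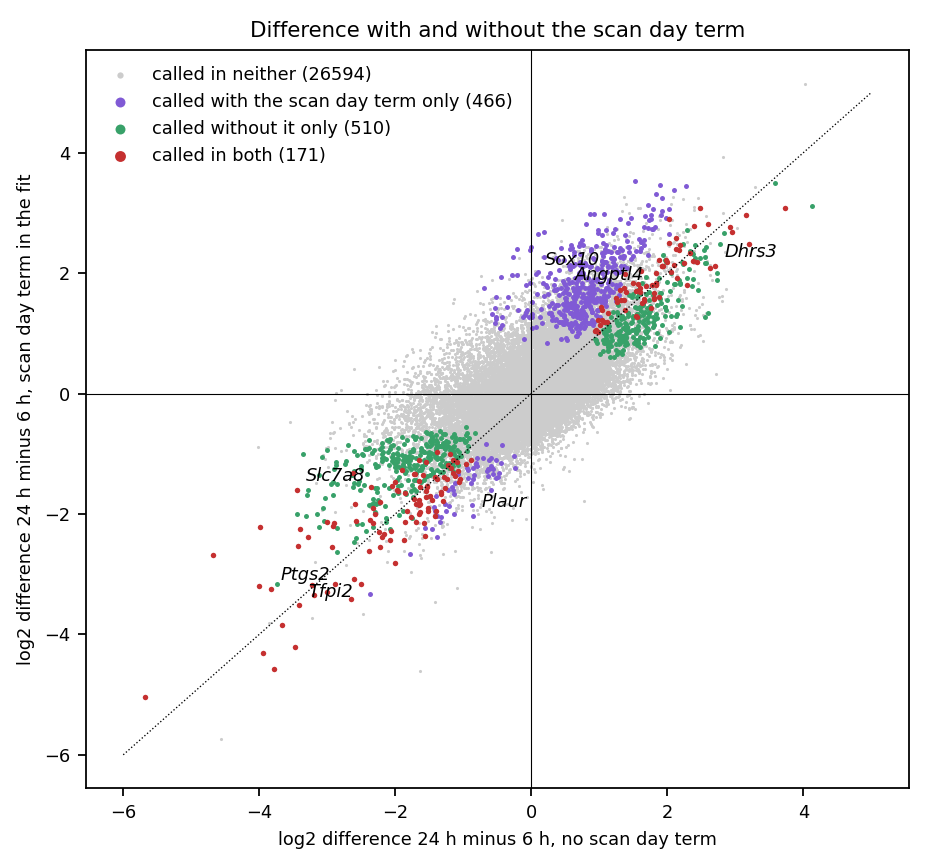
Difference between 24 h and 6 h at 1/25 (log2) in the fit with the scan day term (y axis) against the fit without it (x axis); each point is a gene, coloured by the fit that called it, and the dotted line marks equal values. The 171 genes called in both include Ptgs2, Tfpi2 and Slc7a8, the last far from the line at -1.60 with the term and -3.44 without it, while Sox10 and Angptl4 are near 0 to 0.52 without the term and 1.98 and 1.74 with it.

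The number of calls rested on single arrays. Leaving out 6 h replicate 1 left 3 calls and leaving out 6 h replicate 2 gave 1929. Without 24 h replicate 1, 2 or 3 the counts were 174, 421 and 232. Of the 637 genes, 628 had all 24 h arrays beyond 6 h replicate 1, the array scanned with them. The fit that called these genes draws on that contrast, so the count describes their selection and tests nothing. Its share over all genes is not given here. In 304 of the 637 all 24 h arrays lay beyond all 6 h arrays, against 5502 or 19.8% of all genes tested (2991 or 10.8% higher, 2511 or 9.05% lower). All 637 kept their direction without 6 h replicate 1, but that fit shares its arrays with the one that chose these genes. Keeping direction was thus likely beforehand, and only 2 were still called without 6 h replicate 1. Of 34 called genes among the leading changes, list members and genes of prior interest, all 34 lost the call without that array, and 11 held it without any other of the 9 arrays left out in turn, the 6 at 1/25 and the 6 h arrays at concentration 1. The 17 other called genes that met the naming criteria or were given bounds also all lost it without 6 h replicate 1. The 11 were Ptgs2, Tfpi2, Dlx5, Gfra2, Ccl2, Mzt2b, Zfp335, Gbp2, Gjb2, Akr1c15 and Sox10.

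Dlx5, Itga2 and Gfra2 were the next falls by size among genes that met the naming criteria. Dlx5, a homeobox factor of skeletal and craniofacial development, read 0.15, -0.66 and -0.92 at 6 h and -3.21, -2.80 and -3.36 at 24 h (difference -3.41 ± 0.49, adjusted p = 0.00364; -3.67 without 6 h replicate 1). Itga2, the alpha subunit of a collagen-binding integrin, read -0.09, 0.12 and -1.52 against -2.75, -2.73 and -2.70 (-2.56 ± 0.48, adjusted p = 0.0157; -2.40 without 6 h replicate 1). Gfra2, a receptor for neurturin, read -1.17, -0.52 and 0.67 against -3.59, -3.19 and -3.02 (-2.55 ± 0.45, adjusted p = 0.0124; -3.46 without 6 h replicate 1). In all 3 the 24 h arrays lay close together and well below every 6 h array, and none of the calls survived the loss of 6 h replicate 1. The call of Itga2 was also lost without 24 h replicate 1 (-2.80 to -2.33 over the arrays left out). Dlx5 and Itga2 fell at concentration 1 too, by -3.05 and -2.52, and Gfra2 by -1.70.

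Nmt2, Dok5, Mybl1 and Aldh1a2 fell by less. Nmt2, which attaches myristate to proteins, differed by -2.33 ± 0.48, the adaptor Dok5 by -1.85 ± 0.36 and the transcription factor Mybl1 by -1.64 ± 0.39. Adjusted p-values were 0.0226, 0.0187 and 0.0424. The 24 h levels of these genes ran from -3.98 to -2.43, and for Mybl1 the highest 24 h array (-2.86) was only just below the lowest 6 h array (-2.59). Aldh1a2, which makes retinoic acid, read 0.92, 1.43 and 1.77 at 6 h and -0.80, -0.26 and -0.69 at 24 h, a fall of -1.62 ± 0.37 (adjusted p = 0.0348), and its 24 h arrays matched the untreated ones at -0.81 and -0.48. Without 6 h replicate 1 the differences were -2.43 for Nmt2, -1.99 for Dok5, -1.42 for Mybl1 and -1.84 for Aldh1a2, and none was called.

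Ccl2, the chemokine that draws monocytes, was the called member of 23 measured cytokines, chemokines and NF-kappa-B targets, beside 2.3% of all genes tested. It read 1.25, -0.27 and -0.12 at 6 h and -1.38, -0.68 and -1.33 at 24 h, with 6 h replicate 1 well above its group. The difference was -2.03 ± 0.34 (adjusted p = 0.0109), but -1.42 without the scan day term (adjusted p = 0.046) and -1.31 without 6 h replicate 1, where it was not called. The list's median was -0.23. Cxcl1, a neutrophil chemokine, differed by -0.53 (adjusted p = 0.4) and Ccl5, which attracts T cells, by 1.13 (adjusted p = 0.051). Icam1 and Vcam1, adhesion molecules of activated endothelium, differed by -0.23 and 0.15 (adjusted p = 0.65 and 0.82).

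No member of the 26 immediate early genes was called, and their median difference was -0.43. Fosl1, a FOS family factor, read 0.19, -0.87 and -1.33 at 6 h and -2.41, -1.98 and -2.08 at 24 h, a difference of -1.87 ± 0.48 (adjusted p = 0.0538; -0.90 without 6 h replicate 1). Dusp6, a phosphatase of ERK, differed by -1.07 ± 0.29 (adjusted p = 0.0648) with 2 of 6 arrays saturated. Fos and Dusp1 had the opposite sign, at 1.09 and 1.76, and did not pass (adjusted p = 0.22 and 0.12). Without the scan day term the list's median was -0.11 and Nr4a2, an orphan nuclear receptor, was called at -1.70 (adjusted p = 0.038), against -1.32 with it (adjusted p = 0.14). Nr4a2 was above background on 3 of 6 arrays, none of them at 24 h.

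A pair of amino acid transporters and the unfolded protein sensor Ern1 fell. Slc7a5, the light chain of the LAT1 transporter of large neutral amino acids, read 1.21, 1.42 and 1.28 at 6 h and 0.24, -0.52 and -0.43 at 24 h (-1.56 ± 0.33, adjusted p = 0.0258). Here the 24 h arrays also lay below the untreated arrays, at 2.04 and 0.99. Slc7a8, the related LAT2 chain, read -1.06, 1.06 and 2.16 against -3.03, -2.43 and -2.71 (-1.60 ± 0.35, adjusted p = 0.0284), and its difference was -3.44 without the scan day term, since 6 h replicate 1 lay far below replicates 2 and 3. Ern1, which encodes the endoplasmic reticulum sensor IRE1 alpha, read -0.31, 0.12 and 0.94 against -2.22, -1.36 and -1.58 (-1.60 ± 0.34, adjusted p = 0.0248). Without 6 h replicate 1 the differences were -1.78, -1.47 and -1.99 in that order, none called, and each call was also lost without 24 h replicate 3 and without replicate 3 of 6 h at concentration 1.

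Those lists had medians near that of all genes or slightly below. Of 28 ATF4 and integrated stress response genes, Slc7a5 was called lower and Vldlr higher, beside 2.3% of all genes tested, and the median was 0.04. Ddit3, Trib3 and Asns, which that pathway induces, differed by 0.12, 0.09 and -0.28 (adjusted p = 0.89, 0.88 and 0.69). Of 21 endoplasmic reticulum chaperone and sensor genes, Ern1 was the called one, beside 2.3% of all genes tested, and the median was -0.20. The chaperone Hspa5 differed by -0.35 (adjusted p = 0.69). Hspa4, of the cytosolic heat shock list, read 1.90, 1.79 and 1.49 at 6 h and 0.33, 0.60 and 0.84 at 24 h, a difference of -1.53 (adjusted p = 0.0731) in which 1 of its 2 probes had that sign. None of 23 heat shock genes was called, and their median was -0.33 with the scan day term and 0.17 without it.

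Cflar, an inhibitor of caspase 8, was the called member of 24 BCL2 family and apoptosis regulators, beside 2.3% of all genes tested. It read 0.24, -0.04 and 0.35 at 6 h and -1.36, -0.75 and -0.80 at 24 h, a fall of -1.32 ± 0.26 (adjusted p = 0.0179; -1.54 without 6 h replicate 1, not called). The untreated arrays, at -0.75 and -0.87, lay with the 24 h arrays. The call was also lost without 24 h replicate 1 and without replicate 3 of 6 h at concentration 1, over a range of -1.54 to -1.13.

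**Figure D3:**
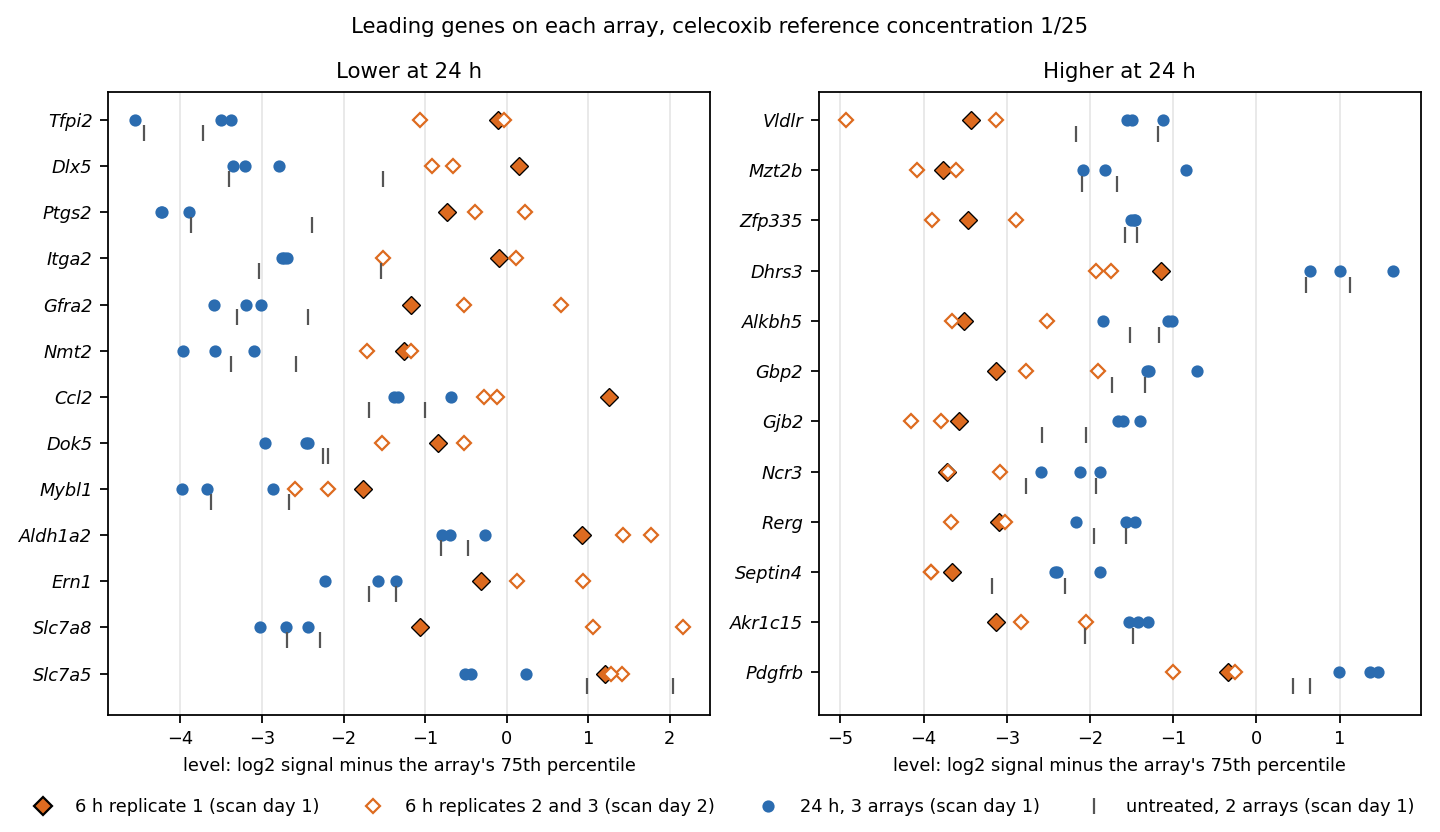
Level (log2 signal minus the array's 75th percentile, x axis) of the 12 largest falls with Ptgs2 and of the 12 largest rises (y axis) on each array at 1/25; diamonds are 6 h (filled: replicate 1, scanned with the 24 h arrays; open: replicates 2 and 3), circles 24 h and ticks untreated. The circles lie to one side of all diamonds in every row, by least in Mybl1 (-2.86 against -2.59), and those of Slc7a5 lie below the untreated ticks.

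Dhrs3, Vldlr and Pdgfrb were among the leading rises. Dhrs3, a retinaldehyde reductase that lowers retinoic acid supply, read -1.15, -1.93 and -1.75 at 6 h and 1.65, 0.65 and 1.00 at 24 h (2.12 ± 0.39, adjusted p = 0.0145). Vldlr, a lipoprotein receptor, read -3.43, -3.13 and -4.93 against -1.50, -1.12 and -1.56 (2.19 ± 0.53, adjusted p = 0.0435). Pdgfrb, the PDGF receptor of pericytes and fibroblasts, read -0.34, -0.26 and -1.001 against 1.46, 1.00 and 1.36 (1.56 ± 0.31, adjusted p = 0.0184). All 24 h arrays of these genes were above all 6 h arrays, and Pdgfrb at 24 h was also above the untreated arrays, at 0.64 and 0.44. Without 6 h replicate 1 the differences were 1.86 for Dhrs3, 2.49 for Vldlr and 1.46 for Pdgfrb, none called. Each call was lost without 24 h replicate 1 too, and those of Vldlr and Pdgfrb without 24 h replicate 3.

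Gbp2, Gjb2, Zfp335, Mzt2b and Akr1c15 stayed called without any single array other than 6 h replicate 1. Gbp2, an interferon-induced GTPase, read -3.13, -1.91 and -2.77 at 6 h and -1.29, -1.32 and -0.72 at 24 h (1.84 ± 0.34, adjusted p = 0.0139; 1.48 without 6 h replicate 1). Gjb2, which encodes connexin 26, read -3.57, -3.79 and -4.15 against -1.60, -1.66 and -1.40 (1.80 ± 0.34, adjusted p = 0.0146; 1.35 without 6 h replicate 1). Gbp2 and Gjb2 rose at concentration 1 as well, by 1.40 and 1.56, respectively. Zfp335, a zinc finger protein, rose by 2.13 ± 0.37, Mzt2b, a subunit of the gamma-tubulin ring complex, by 2.17 ± 0.38 and Akr1c15, an aldo-keto reductase, by 1.59 ± 0.29. Their adjusted p-values were 0.0117, 0.0123 and 0.0139. At concentration 1 the corresponding differences were 0.14, 0.66 and 1.59, and of these 3 the last was called (adjusted p = 0.00712).

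Alkbh5, an RNA demethylase, rose by 2.11, Ncr3, a receptor of natural killer cells, by 1.73, the small GTPase gene Rerg by 1.71 and Septin4, a cytoskeletal GTPase gene, by 1.69. Adjusted p-values ran from 0.0145 to 0.0286. These 4 differed by 1.93, 2.13, 2.39 and 2.23 without 6 h replicate 1 and were not called there. The 12 genes that met the naming criteria beyond those largest changes were Cflar, Med21 and Nap1l3 among the falls and Dpy30, Or4c58, Cd83, Dscc1, Plcl1, Nuf2, Pdia2, Oplah and Odf1 among the rises, with sizes from -1.32 to 1.56.

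For 453 of 479 called rises (94.6%) and 124 of 155 called falls (80%), the 24 h mean lay nearer the untreated mean than 6 h replicate 1 did, all on the same scan day, against 76.6% of 27680 genes tested. The medians were -1.87 for rises and 1.41 for falls when 6 h replicate 1 was set against untreated, and -0.08 and -0.34 when 24 h was. The shares above and the first pair of medians set a single 6 h array against means. For called genes they use the contrast that chose those genes, so they describe them and test nothing. The untreated arrays have no stated time, and scan day moves with this pattern, since 6 h replicates 2 and 3 came from the other day. With the mean of all 6 h arrays the shares were 86.8% for rises, 67.7% for falls and 64% for all genes tested. The shares for rises and falls again use the contrast that chose the genes and test nothing.

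Mitosis genes mostly read higher at 24 h. Of 34 measured, 29 read higher, against 14189 of 27741 over all genes. In 18 all 24 h arrays lay above all 6 h arrays and in 0 below, beside 10.8% and 9.05% of all genes, and the median difference was 0.68 (0.83 without the scan day term, 0.80 without 6 h replicate 1), against 0.02 over all genes. Their mean log2 level was -1.60, -1.87 and -2.15 on the 6 h arrays and -1.09, -1.05 and -1.05 on the 24 h arrays. The untreated arrays stood at -1.55 and -1.67, below 24 h. Nuf2, a kinetochore protein, was the called member, beside 2.3% of all genes tested. It read -3.27, -4.16 and -3.21 at 6 h and -1.83, -2.08 and -1.86 at 24 h (1.51 ± 0.38, adjusted p = 0.0497; 1.84 without 6 h replicate 1). That call sat at the threshold and was lost in 7 of the 9 fits that left out an array.

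Without the scan day term 8 of 34 mitosis genes were called, all higher, beside 681 or 2.45% of all genes tested (299 of them higher). They were Nuf2, Ndc80 of the same kinetochore complex, the kinases Cdk1 and Plk1, the checkpoint kinase Bub1b, the spindle proteins Tpx2 and Kif2c, and Ube2c, which marks cyclins for destruction. With the term, Ndc80 differed by 0.99 (adjusted p = 0.055), Plk1 by 1.05 (adjusted p = 0.073) and Cdk1 by 0.66 (adjusted p = 0.14). Mki67, Ttk and Bub1, also dividing-cell genes, differed by -0.01, -0.04 and -0.05 (adjusted p = 0.99, 0.96 and 0.94). At concentration 1 the list's median was 0.39 with 0 called.

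DNA replication genes read the same way with no call. The median over 32 measured genes was 0.55 (0.74 without the scan day term, 0.47 without 6 h replicate 1), and 10 had all 24 h arrays above all 6 h arrays against 1 below, beside 10.8% and 9.05% of all genes. The mean log2 level was -2.16, -2.08 and -2.69 at 6 h, -1.56, -1.78 and -1.51 at 24 h and -1.43 and -1.89 untreated, so here 24 h stood with the untreated arrays. Tyms, thymidylate synthase, differed by 0.70 ± 0.25 (adjusted p = 0.141) and the origin licensing factor Cdc6 by 1.61 (adjusted p = 0.28). Without the scan day term Mcm4, Orc1 and Lig1 were called, at 1.41, 1.16 and 1.37, beside 2.45% of all genes tested in that fit. Pcna and Rrm2 differed by -0.24 and 0.17 (adjusted p = 0.7 and 0.76).

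Of 22 measured cell cycle inhibitors and p53 targets none was called, and the median was -0.04 with the scan day term and 0.25 without it. Cdkn2b, an inhibitor of CDK4 and CDK6, read -2.19, -0.91 and -2.15 at 6 h and -0.51, -0.69 and -0.84 at 24 h, a difference of 1.42 (adjusted p = 0.0685). Its relative Cdkn2c differed by 1.52 (adjusted p = 0.122).

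**Figure D4:**
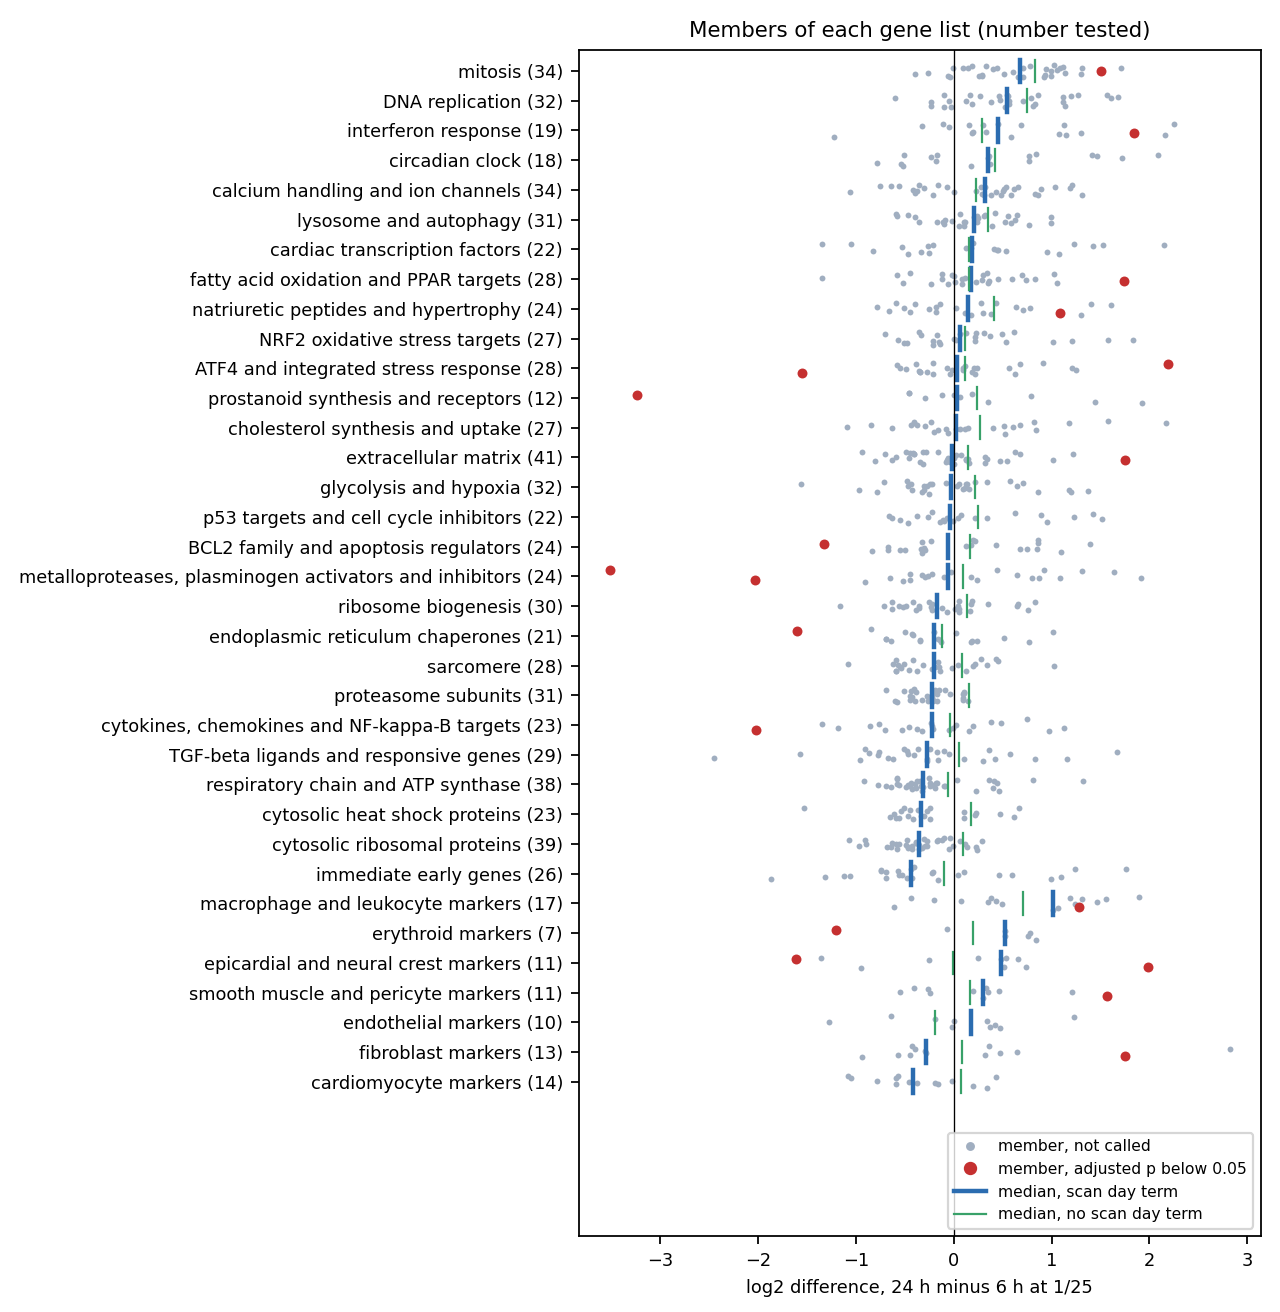
Difference between 24 h and 6 h at 1/25 (log2, x axis) of each measured member of 28 gene lists and, in the lowest rows, 7 cell marker lists (y axis, number measured in brackets); red points were called, and bars give the list's median with (blue) and without (green) the scan day term. Mitosis (0.68 and 0.83) and DNA replication (0.55 and 0.74) lie right of 0 by both medians, whereas ribosomal proteins (-0.36 and 0.09) and heat shock proteins (-0.33 and 0.17) change side.

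Macrophage and leukocyte markers had a median of 1.01 over 17 measured, the highest of any list with the scan day term. It was 0.70 without that term and 0.43 without 6 h replicate 1, both below the mitosis list (0.83 and 0.80). Their summed signal was 16.9, 14.8 and 12.2 at 6 h and 18.7, 17.6 and 19.2 at 24 h, relative to the 75th percentile. The mean log2 level was -2.28, -1.71 and -2.08 at 6 h and -1.31, -1.56 and -1.36 at 24 h, with 6 h replicate 1 lowest. In bulk RNA, a change in the number of cells of a type and a change in RNA per cell cannot be told apart. Cd83, known from activated dendritic cells and macrophages, was the called member at 1.28 ± 0.32 (adjusted p = 0.0464), beside 2.3% of all genes tested. It read -2.06, -2.81 and -2.68 at 6 h, -0.82, -1.20 and -0.90 at 24 h and -3.09 and -3.67 untreated. Both times stood above the untreated arrays, and the difference was 1.67 without 6 h replicate 1 and not called.

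The other macrophage genes spread widely. C1qa and C1qb, complement components, differed by 1.46 and 1.01 (adjusted p = 0.16 and 0.12), and Cd14, a lipopolysaccharide co-receptor, by 1.07 (adjusted p = 0.11). Csf1r, the receptor that macrophages depend on, differed by 1.89 (adjusted p = 0.18) but was above background on 2 of 6 arrays. Cd68, Tyrobp and C1qc differed by -0.61, -0.44 and 0.08. In all, 14 of 17 read higher, beside 14189 of 27741 genes tested, and 5 had all 24 h arrays above all 6 h arrays, beside 10.8% of genes.

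Interferon-induced genes had a median of 0.46 over 19 measured, with Gbp2 called, beside 2.3% of all genes tested. Without the scan day term 4 of the list were called, beside 2.45% of all genes tested. Besides Gbp2 they were Tap1, the peptide transporter of antigen presentation (2.40), Isg15, a ubiquitin-like protein (1.56) and Rsad2, an antiviral enzyme (1.28). With the term those 3 gave 2.25, 1.13 and 1.30 (adjusted p = 0.071, 0.16 and 0.084). Tap1 was above background on 3 of 6 arrays and Rsad2 on 4 of 6, against all 6 for Isg15 and Gbp2. Ifit1 and Ifi27, classic interferon targets, differed by -0.12 and -0.05 (adjusted p = 0.88 and 0.94), so the list held values of either sign.

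None of 14 cardiomyocyte markers and 28 sarcomere genes was called, and the sign of both medians changed with the scan day term. The median of 14 cardiomyocyte markers was -0.42 with the scan day term and 0.07 without it, and that of the sarcomere genes was -0.20 and 0.08. Xirp2, a sarcomere gene that binds actin, had all 24 h arrays below all 6 h arrays and was called without the term (-1.35, adjusted p = 0.046), against -0.62 with it (adjusted p = 0.20). Myh6, the fast myosin heavy chain, read 2.68, -0.62 and 2.40 at 6 h and 1.71, 1.73 and 1.66 at 24 h (-1.09 ± 0.73, adjusted p = 0.408; 0.21 without the term). Myh7, the slow chain, read 2.70, 0.22 and 2.36 against 2.37, 2.48 and 1.67 (-0.59 ± 0.61, adjusted p = 0.593; 0.41 without the term). In both genes 6 h replicate 2 lay far below its group while the 24 h arrays were close together.

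Nppa and Nppb, which encode natriuretic peptides secreted by stretched heart muscle, were not called either, unlike Nppc, given with the bounds below. Nppa read 1.34, 0.66 and 2.32 at 6 h and 0.42, 0.93 and 0.56 at 24 h (-0.79 ± 0.53, adjusted p = 0.409). Nppb was saturated on all 6 arrays, at 3.50, 1.68 and 2.40 and then 2.54, 2.73 and 2.24 (-0.66 ± 0.29, adjusted p = 0.223; -0.02 without the scan day term), so changes in it are compressed. Adra1b, an alpha-1 adrenergic receptor of the natriuretic peptide and hypertrophy list, was called at 1.08 ± 0.25 (adjusted p = 0.0361). It read -1.63, -1.48 and -1.29 at 6 h and -0.80, -0.70 and -0.59 at 24 h. That call was absent without the scan day term (0.77, adjusted p = 0.0985) and without 6 h replicate 1 (1.39), and 1 of its 3 probes had the opposite sign.

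**Figure D5:**
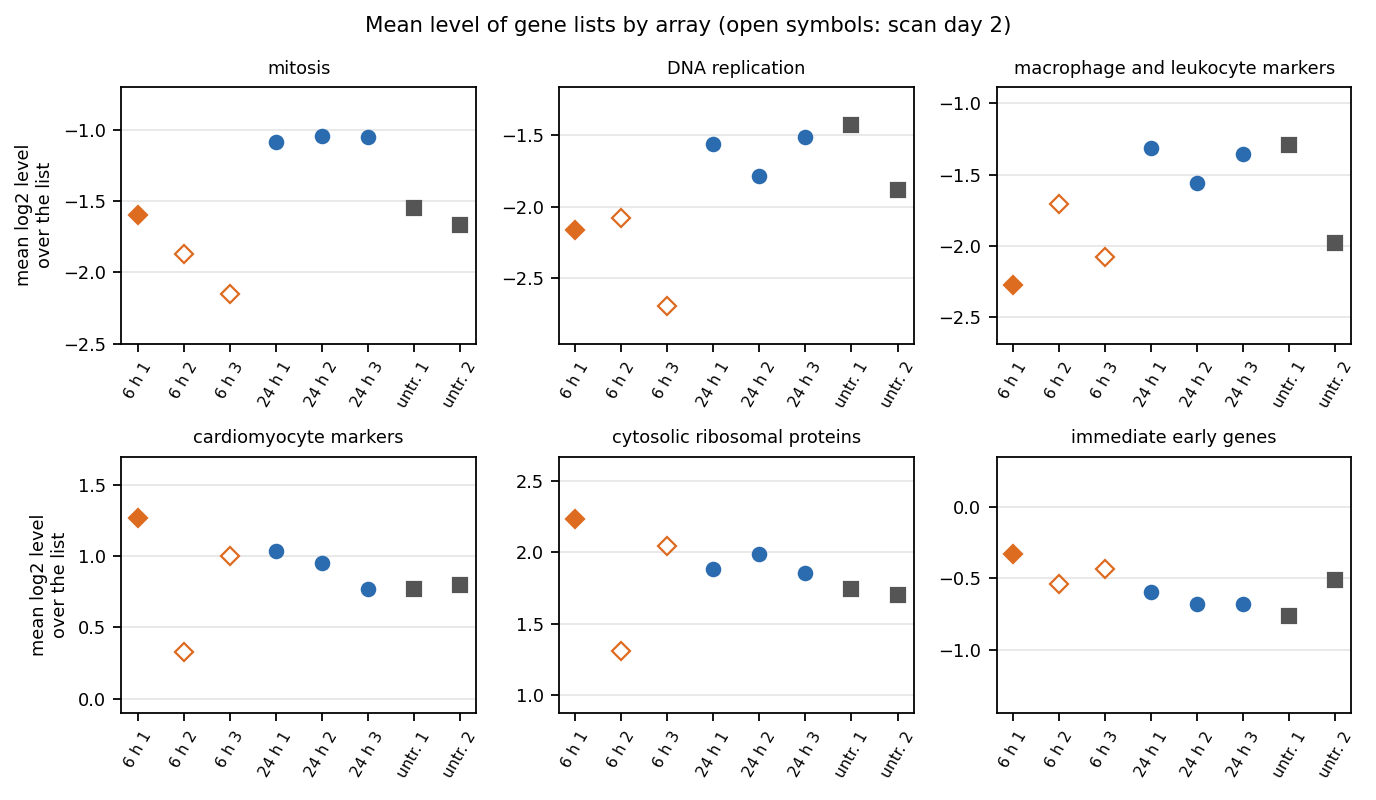
Mean level over each of 6 gene lists (log2 signal minus the array's 75th percentile, y axis) on the 6 arrays at 1/25 and the 2 untreated arrays (x axis); open symbols were scanned on the other day. The 3 mitosis values at 24 h (-1.09 to -1.05) lie above all others, while cardiomyocyte markers and ribosomal proteins are lowest on 6 h replicate 2 (0.33 and 1.31) and show no separation of the times.

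Several marker genes were called only with the scan day term, each with overlapping or nearly overlapping arrays. Sox10, a neural crest factor, read -6.27, -2.96 and -2.81 at 6 h and -4.23, -3.63 and -3.95 at 24 h. Its call at 1.98 ± 0.36 (adjusted p = 0.0135) thus rested on 6 h replicate 1, far below the other arrays at 1/25. The difference was 0.08 without the term. At concentration 1 Sox10 read -5.08 and -6.22 on the 6 h arrays scanned with the 24 h arrays and -3.31 on the 6 h array of the other day. The difference there was 1.66 with the term (adjusted p = 0.0156). Angptl4, a lipoprotein lipase inhibitor and PPAR target, read -5.94, -3.36 and -3.86 against -4.17, -3.69 and -3.75 (1.74 ± 0.41, adjusted p = 0.038; 0.52 without the term). Both were above background on 5 of 6 arrays. Ahsp, a chaperone of alpha-globin, differed by -1.21 (adjusted p = 0.0351; -0.59 without the term) and the proteoglycan gene Lum by 1.75 (adjusted p = 0.0472; 1.25 without the term, adjusted p = 0.092), with Lum above background on 3 of 6 arrays. None of these 4 was called without 6 h replicate 1, where they differed by 1.28, 1.08, -1.47 and 1.55.

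Housekeeping lists gave no called member. The medians were -0.36 for 39 ribosomal proteins, 32 of which were saturated on at least 1 array, -0.32 for 38 respiratory chain genes and -0.22 for 31 proteasome subunits. Without the scan day term they were 0.09, -0.06 and 0.15. Lysosome and autophagy genes had 0 of 31 called with a median of 0.20, NRF2 targets 0 of 27 with 0.06 and cholesterol synthesis 0 of 27 with 0.02. Extracellular matrix genes had 1 called of 41, Lum, beside 2.3% of all genes tested, and a median of -0.02.

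None of 18 clock genes was called. Cry1, a repressor of the clock, read 0.58, 0.24 and 0.28 at 6 h and -0.36, -0.33 and -0.39 at 24 h (-0.79 ± 0.24, adjusted p = 0.0932). Nr1d1, which encodes REV-ERB alpha, read -5.80, -5.63 and -5.95 against -3.00, -4.04 and -4.24 and was well above background on no 6 h array, which puts it at least 2.70-fold higher at 24 h (adjusted p = 0.115). Bmal1, Per1 and Per2 differed by -0.54, 0.84 and -0.23 (adjusted p = 0.33, 0.41 and 0.7).

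Genes measured at one time only are given as bounds, against the dimmest signal well above background. The bounds use the mean of the arrays of the brighter time and no scan day term. At 6 h 38 such genes were brighter, 5 of them called, and at 24 h 8 were, 3 of them called. Over all genes tested 0.559% were called lower at 24 h and 1.74% higher. Bounded genes were picked by a contrast between the times, so their higher share called is no result about them. Cyp1a1, a cytochrome P450 induced through the aryl hydrocarbon receptor, read -1.74, -1.14 and -0.25 at 6 h and -6.72, -6.28 and -7.16 at 24 h, where it was not above background. It was at least 12.9-fold higher at 6 h (adjusted p = 0.0139). Ccl20, a chemokine, was at least 5.58-fold higher at 6 h by its bound, 2.48 on the log2 scale. With the scan day term its difference was smaller than that, at -1.19, and not called (adjusted p = 0.209). C3h15orf48 was at least 4.40-fold higher at 6 h (adjusted p = 0.0266). Nppc, which encodes C-type natriuretic peptide, read -6.05, -6.54 and -7.61 at 6 h and -3.71, -2.48 and -2.81 at 24 h and was at least 5.12-fold higher at 24 h (adjusted p = 0.0083). Cyp2u1, another cytochrome P450, and the endothelial transcription factor Erg were at least 3.63-fold and 3.54-fold higher (adjusted p = 0.0284 for each).

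The effect of time at 1/25 was set against the effect of time at concentration 1. For 0 of 27741 genes, 0.0%, did the difference of both effects pass the adjusted test in limma, with 1231 at an unadjusted p below 0.05, and 0 passed under each of 12 other settings, none of which left out a single array. At concentration 1 389 genes were called between the times. On the arrays of scan day 1 alone, 617 genes called at 1/25 (96.9%) had the same sign at concentration 1. Over all genes tested it was 19348 or 69.7%. These contrasts share no arrays, but the genes were called in the fit of all arrays. There the 6 h arrays at concentration 1 help set the scan day term. The share among called genes is thus partly built in by their selection and tests nothing. Among the leading genes, Zfp335 rose by 2.13 at 1/25 and differed by 0.14 at concentration 1, a gap of 1.99 ± 0.44, and Alkbh5 by 2.11 and 0.31, a gap of 1.80 ± 0.49 (adjusted p = 0.995 for each). In data simulated for 24 h versus 6 h at 1/25, not for the difference between concentrations, with 200 of 27122 genes changed, 0% of changes of 1 on the log2 scale were recovered, 58% of changes of 2 and 82.5% of changes of 3, so small changes with time at 1/25 could go uncalled.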

How the data were processed

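The deposited scanner files hold fluorescence intensity per spot, which per the file headers the authors obtained with version 9.5.3.1 of Agilent's Feature Extraction. The authors' deposited value table holds a linear ratio. Checked here, 99.6% of its 820240 values lay within 1% of the processed signal over the array median and over the mean of both untreated arrays. What was done before scanning, beyond Trizol extraction and Agilent amplification per the labels' protocols, is not given in the sources used here.

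Processed signals were taken to log2 less the array's 75th percentile, spots of a probe were averaged without outlier flags, and probes had to be well above background on all arrays of 1 or more groups (31739 of 41012 probes). The brightest kept probe stood for each of 27742 genes. Symbols came from RefSeq accessions (10735 probes and 48 by another accession) or symbols and synonyms (9300), and 20929 probes kept the file's name. All 20 arrays were fitted in limma 3.58.1 (R 4.3.3) with 7 group means and scan day, two-sided, with 12 residual degrees of freedom, and Benjamini-Hochberg adjustment ran over all genes. The difference of the time effects came from the same fit. Tables were made with pandas 2.3.3 in Python 3.11.15.

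The genes named were the 12 largest rises and the 12 largest falls called with and without scan day, with a symbol, above background, unsaturated and not overlapping on the 6 arrays, and with all probes agreeing. Up to 4 called members of each of 28 gene lists and 7 marker lists, or 1 to 2 uncalled ones, 8 genes of prior interest and the 3 largest bounds each way were added, and further list members are quoted as list values. Some genes that this rule names are not reported here. The members and lists were chosen with earlier results of these data known. In simulated data, false calls made up 4.92% and 5.17% of all calls at changes of 2 and 3. The simulated noise was normal, independent between arrays and drawn from the fitted model. These shares therefore do not measure false calls among the 637 genes. Replicate numbers did not pair the arrays: the deviations of 24 h and 6 h arrays of one number correlated at -0.06, -0.21 and -0.01. Alternatives tried were no scan day term, replicate number or slide as a block, normexp, quantile and median scaling, 2 other probe filters, mean of probes, the deposited table, subsets of arrays and, in turn, 9 arrays left out, the 6 at 1/25 and the 6 h arrays at concentration 1.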

Additional observations from a re-analysis of the deposited data

How the results depend on the processing

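With scan day in the fit, 637 genes were called between 24 h and 6 h at 1/25. The count was 681 without that term, 1043 with slide as a random block beside it, and 13 with slide as a random block in its place. It was 294 with normexp, 382 with quantile normalisation, 366 with median scaling, 357 with no filter on dim probes, 379 from the deposited table, 342 on scan day 1 arrays alone, and 4 or 0 on the 6 arrays alone without or with scan day. Leaving out one of 9 arrays at a time gave 3 to 1929 calls. Replicate number as a block beside scan day gave 518 calls, 424 of them shared. The test of the difference between concentrations called 0 genes under each of 12 other settings, none of which left out a single array. Of 34 called genes followed over 23 settings, and 17 others over those that tested them, none reversed. The settings reuse arrays of the fit that chose these genes, so this was likely beforehand. With probes above background on all 20 arrays, 30 of the 34 were tested. The calls of 28 were kept without scan day, 34 with slide beside scan day, 5 with slide in its place, 18 with quantile normalisation and 0 without 6 h replicate 1. The cause of these changes was not tested, beyond the fewer arrays of the subsets. Signal over background limits genes above it on some arrays only.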
